A study of Mus musculus with 4 samples.

Results

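The SLAM family receptors and their adaptors were followed as 8 genes, *Slamf1*, *Slamf6*, *Slamf7*, *Cd48*, *Cd84*, *Ly9*, *Sh2d1a* and *Sh2d2a*. They were taken as a family, with no threshold on their measured levels, and were found by their symbols among the 19339 genes listed in each library. All 8 were measured in all 4 libraries and all 8 passed the filter of at least 1 FPKM (fragments per kilobase of transcript, scaled to the mapped fragments of the library) in at least 2 libraries. The libraries hold RNA of small intestinal TCRβ+CD8αα+ intraepithelial lymphocytes (IELs), sorted as CD45+CD4-TCRβ+CD8α+CD8β- cells from C57BL/6 mice, with RNA of 3 mice pooled in each. The 2 control libraries are from Kdm6bfl/fl mice and the 2 libraries labelled Kdm6b-deficient are from Kdm6bfl/fl-CD4Cre mice, with replicate numbers 1 and 3 in each group. Both groups therefore carry loxP-flanked *Kdm6b* alleles. The *CD4Cre* transgene acts from the late double negative thymocyte onward, so the deletion is not restricted to IELs. Age, sex and further treatment of the mice are not given in the sources used here.

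SLAM receptors are immunoglobulin-like proteins of blood cells. Most of them bind a copy of themselves on a neighbouring cell, while CD48, which is anchored to the membrane by a lipid, binds CD244 and CD2. The tails of the signalling members carry tyrosine motifs that recruit the small SH2 adaptor SAP, encoded by *Sh2d1a*, which brings in the kinase Fyn. The related adaptor EAT-2, encoded by *Sh2d1b1*, serves the same receptors in NK cells and is the partner of SLAMF7. SAP and the self-binding receptors SLAMF1 and SLAMF6 are best known for the thymic selection of innate-like T cells and for help from T cells to B cells. *Sh2d2a* encodes TSAd, a T cell adaptor that binds the kinase Lck; it has an SH2 domain but is not a member of the SAP family.

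The target gene overlapped between the groups. In control replicates 1 and 3 *Kdm6b* had 16.5 and 16.01 FPKM, and in the replicates 1 and 3 labelled Kdm6b-deficient it had 18.2 and 11.1 FPKM. The FPKM cover the whole gene and do not resolve the exons between the loxP sites, so they test the label only weakly. The libraries also differed in make-up. The geometric mean of 19 epithelial marker genes (of FPKM + 1) was taken relative to control replicate 1. It was 2.94 times as high in control replicate 3, and 2.53 and 6.72 times in Kdm6b-deficient replicates 1 and 3. The geometric mean of *Cd3d*, *Cd3e*, *Cd3g* and *Ptprc*, relative to control replicate 1, was 0.811 in control replicate 3. In Kdm6b-deficient replicates 1 and 3 it was 0.811 and 0.58. Control replicate 3 and Kdm6b-deficient replicate 1 thus had close levels of both, while Kdm6b-deficient replicate 3 stood apart. *Cd8b1*, for a marker the gate leaves out, lay between 0 and 1.64 FPKM, but *Cd4*, for another such marker, had 30.6 and 10.1 FPKM in the controls and 30.5 and 3.17 FPKM in those labelled Kdm6b-deficient. In bulk RNA, fewer cells of a type and less RNA per cell cannot be told apart.

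The members spanned 2 ranges of level. *Sh2d2a* was the highest member in every library, with 501 and 365 FPKM in control replicates 1 and 3 and 415 and 246 FPKM in Kdm6b-deficient replicates 1 and 3. *Cd48* came second in every library, with 244 and 209 FPKM in the controls and 216 and 120 FPKM in those labelled Kdm6b-deficient. Both stood among the most abundant transcripts, above 96.5% and 92.7% of the genes tested in the library where each was lowest. The other 6 members lay between 3.81 and 40.3 FPKM. In the controls the order went from *Ly9* (mean 31.6 FPKM) through *Slamf6* (24.4 FPKM), *Cd84* (24.0 FPKM), *Sh2d1a* (20.5 FPKM) and *Slamf7* (19.0 FPKM) to *Slamf1* (11.2 FPKM). *Cd48* had 7.17 times the control mean of *Ly9*, and *Sh2d2a* 1.91 times that of *Cd48*, without overlap of the control values. Below *Ly9*, each neighbour in this order overlapped the next in the controls, so their order is not settled. *Slamf1* was the lowest member in each of the 4 libraries.

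**Figure D1:**
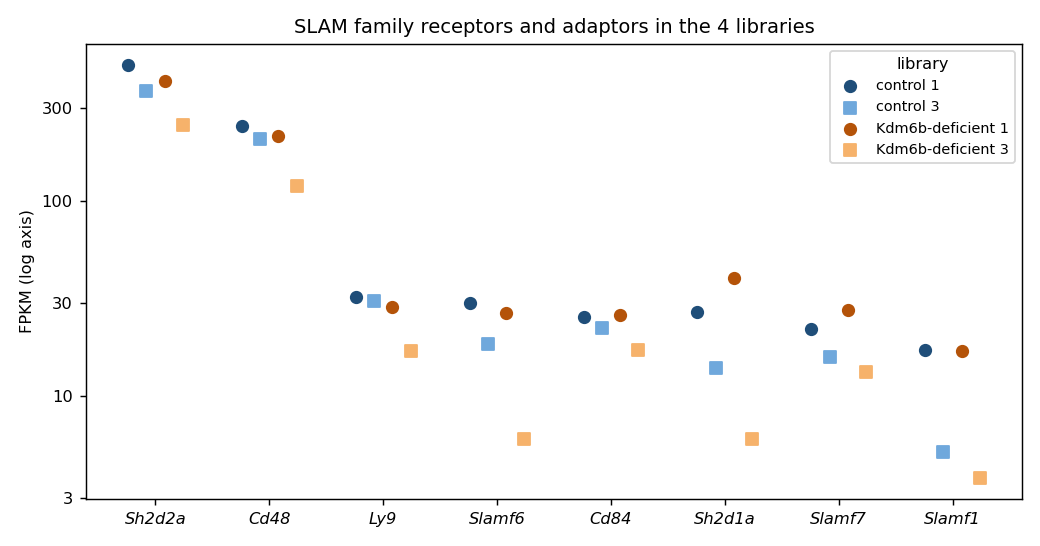
FPKM (log axis) of the 8 members, ordered by their control mean, with 1 point for each of the 4 libraries. Kdm6b-deficient replicate 3 (orange squares) is the lowest point for all 8, and the circles of replicate 1 lie above the squares of replicate 3 for 7 of 8.

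No member differed between the groups by limma with Benjamini-Hochberg adjustment over the 12009 genes tested. At an adjusted p under 0.05, 0 of 8 members passed, against 0.0% of all genes, and at an unadjusted p under 0.05 it was again 0 of 8, against 5.35% of all genes (1.55% with a negative fold change). The lowest adjusted p of a member was 0.757. The log2 fold change (labelled Kdm6b-deficient minus control, on log2(FPKM + 1)) was negative for 7 of 8 members, against 49.9% of all genes, with a median of −0.34 beside 0.00097 over all genes. Single libraries moved this: 3 of 8 members were negative without Kdm6b-deficient replicate 3 (median 0.15) and 5 of 8 without control replicate 1 (median −0.13), while 8 of 8 were negative without control replicate 3 (median −0.62) or Kdm6b-deficient replicate 1 (median −0.87). With the epithelial score as a covariate 2 of 8 were negative, with a median of 0.21. No member lay beyond 1 on the log2 scale in either direction, against 0.441% of all genes below −1 and 6.2% above 1. Their range ran from −0.82 for *Slamf6* to 0.04 for *Slamf7*. When the libraries were scaled to *Cd3d*, *Cd3e*, *Cd3g* and *Ptprc*, the median of all genes moved to 0.36 and 4 of 8 members turned or stayed positive, while 7 of 8 still lay below that median. Both libraries labelled Kdm6b-deficient lay below both controls for 1 of 8 members, *Ly9*, against 18.6% of all genes, and above both for none (0 of 8, against 18.4%). The groups overlapped for the other 7 of 8, against 63.0% of all genes. The smallest two-sided p that exact permutation of 4 libraries in 2 groups allows for any 1 gene is 0.333.

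**Figure D2:**
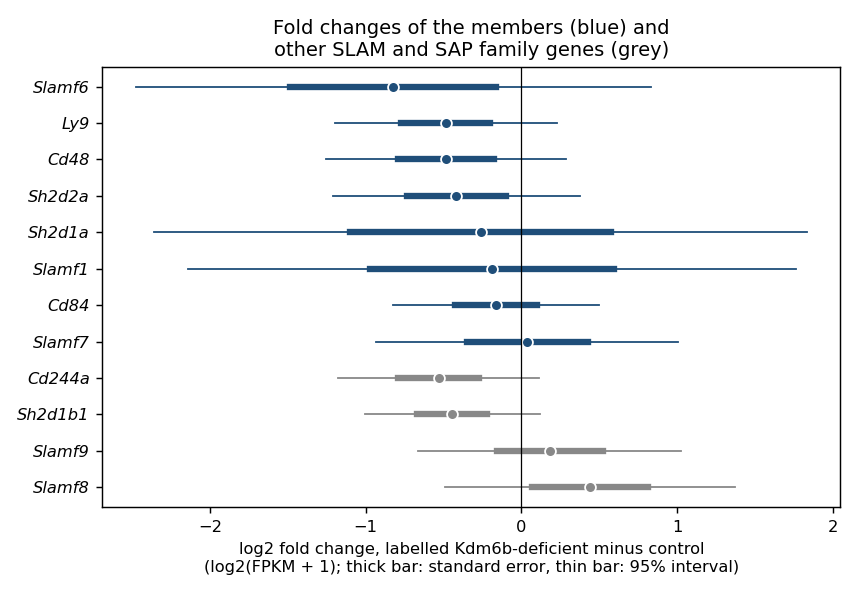
Log2 fold change, labelled Kdm6b-deficient minus control, of the 8 members (blue) and 4 further SLAM and SAP family genes (grey), from limma on 2 libraries a group. Thick bars give the standard error and thin bars the 95% interval; all 12 intervals include 0, and those of *Slamf1* and *Sh2d1a* are the widest.

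Among the receptors that bind themselves, *Slamf1* (CD150; Entrez 27218, chromosome 1 of GRCm38, 171767131 to 171801184) varied more between replicates than between groups. Control replicates 1 and 3 had 17.2 and 5.20 FPKM, and Kdm6b-deficient replicates 1 and 3 had 17.1 and 3.81 FPKM. The replicate 1 libraries of the 2 groups were nearly alike and both were over 3 times their replicate 3 counterparts (3.31 and 4.48 times). The log2 fold change was −0.19 (standard error 0.78, 95% interval −2.14 to 1.76, adjusted p = 0.96 from limma), an interval that leaves differences of either sign undetected. It turned to 0.76 without Kdm6b-deficient replicate 3 and was −1.14 without Kdm6b-deficient replicate 1.

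*Slamf6* (Ly108; Entrez 30925, chromosome 1, 171917458 to 171948958) stood at 30.1 and 18.7 FPKM in the controls and at 26.8 and 6.03 FPKM in those labelled Kdm6b-deficient. Only Kdm6b-deficient replicate 3 lay far from the rest, while Kdm6b-deficient replicate 1 lay between the controls. Its log2 fold change of −0.82 (95% interval −2.47 to 0.83, standard error 0.66, with an adjusted p of 0.785 by limma) was the most negative among the members, and without that library it was 0.17. *Slamf1* and *Slamf6* were the 2 receptors with the widest span over the libraries, the highest being 4.52 and 4.98 times the lowest.

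*Cd84* (Entrez 12523, chromosome 1, 171839697 to 171890718), another self-binding receptor that lies between *Slamf1* and *Slamf6* on the chromosome, had the narrowest span, 1.52 times. Its values were 25.5 and 22.5 FPKM in the controls and 26.2 and 17.2 FPKM in those labelled Kdm6b-deficient, with both controls inside the range of the other group. The log2 fold change was −0.16 (standard error 0.26, 95% interval −0.83 to 0.50, adjusted p = 0.884 from limma), and it turned to 0.13 without Kdm6b-deficient replicate 3.

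The windows ahead of the starts of these neighbours are shown because *Slamf1* and *Slamf6* moved with the replicate number while *Cd84*, between them, moved little. They are 246 bases long, on the plus strand of GRCm38.p6 from RefSeq, at chr1:171766882-171767127, chr1:171917212-171917457 and chr1:171839447-171839692. Capitals mark matches on either strand to the motifs searched. These were the E-box CANNTG, the Runx motif TGTGGT, the ETS core CCGGAA, the GATA motif AGATAA and the TCF motif CTTTGA, and the matches in these windows do not overlap.
Slamf1: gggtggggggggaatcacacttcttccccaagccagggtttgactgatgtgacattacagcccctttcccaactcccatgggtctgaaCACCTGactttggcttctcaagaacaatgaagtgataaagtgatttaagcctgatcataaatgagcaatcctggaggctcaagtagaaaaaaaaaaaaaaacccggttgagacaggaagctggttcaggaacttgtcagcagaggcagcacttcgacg
Slamf6: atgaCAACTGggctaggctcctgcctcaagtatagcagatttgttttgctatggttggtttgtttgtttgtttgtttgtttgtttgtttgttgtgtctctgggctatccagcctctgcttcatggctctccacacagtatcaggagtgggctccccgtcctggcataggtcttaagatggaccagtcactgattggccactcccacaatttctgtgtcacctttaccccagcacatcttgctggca
Cd84: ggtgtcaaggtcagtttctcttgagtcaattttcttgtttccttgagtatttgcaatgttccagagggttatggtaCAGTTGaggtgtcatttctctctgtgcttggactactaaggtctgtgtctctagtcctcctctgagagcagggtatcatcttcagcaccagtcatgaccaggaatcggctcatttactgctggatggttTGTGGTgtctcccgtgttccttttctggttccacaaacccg
Each window held 1 E-box, and 65.8% of 32851 promoter windows of this length held at least 1. The *Cd84* window also held 1 Runx motif, found in 13.9% of windows, and the *Slamf1* and *Slamf6* windows held none. None of the 3 windows held the ETS, GATA or TCF letters, which 11.7%, 9.87% and 13.7% of windows hold. Windows were at hand for 5 of the 8 members.

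*Ly9* (CD229; Entrez 17085, chromosome 1, 171588613 to 171607410), a self-binding receptor of T and B cells, was the member whose groups did not overlap. It had 32.4 and 30.9 FPKM in the controls, a range of 1.51 FPKM, and 28.9 and 17.2 FPKM in those labelled Kdm6b-deficient. The log2 fold change of −0.49 (standard error 0.29, 95% interval −1.20 to 0.23) was not called by limma (adjusted p = 0.757). It was −0.13 without Kdm6b-deficient replicate 3 and −0.84 without Kdm6b-deficient replicate 1. *Ly9* was also the member in which the replicate 1 libraries did not both exceed the replicate 3 libraries. Divided by the geometric mean of *Cd3d*, *Cd3e*, *Cd3g* and *Ptprc*, its values were 0.0508 and 0.0597 in the controls. They were 0.0558 and 0.0464 in the libraries labelled Kdm6b-deficient, and the groups overlapped.

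*Slamf7* (CRACC; Entrez 75345, chromosome 1, 171632403 to 171653037), which is also a receptor of NK and plasma cells, stood at 22.1 and 15.99 FPKM in the controls and 27.8 and 13.3 FPKM in those labelled Kdm6b-deficient. The lowest and the highest of the 4 values were thus both in the second group. Exons of *Slamf7* share bases with *Gm37787* on the other strand, which was not analysed here, so with the strand setting of the counting unknown its reads may be included. The log2 fold change was 0.04 (standard error 0.39, 95% interval −0.93 to 1.004, adjusted p = 0.987 from limma), and leaving out single libraries moved it between −0.47, without Kdm6b-deficient replicate 1, and 0.54, without Kdm6b-deficient replicate 3. Of 8 B and plasma cell markers, 4 were likewise higher in both replicate 1 libraries than in both replicate 3 libraries, against 22.8% of all genes. *Jchain*, the joining chain of antibodies, was among them, with 16.7 and 0.94 FPKM in the controls and 48.8 and 0.13 FPKM in those labelled Kdm6b-deficient. *Sdc1*, which encodes the plasma cell marker CD138 and is also made by epithelium, went the other way, with 9.14 and 17.7 FPKM and 14.1 and 44.8 FPKM. The summed FPKM of the list ranged from 228 to 236 in the controls and from 257 to 304 in the libraries labelled Kdm6b-deficient, most of it from *Xbp1*. The geometric mean of the list, relative to control replicate 1, was 0.682 in control replicate 3 and 1.11 and 0.769 in Kdm6b-deficient replicates 1 and 3, so the groups overlapped. *Pax5* was at 0 to 0.1 FPKM, and the part of these markers in the *Slamf7* values was not tested.

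*Cd48* (Entrez 12506, chromosome 1, 171681245 to 171705258), the ligand of CD244 and CD2, was not called by limma (log2 fold change −0.48, standard error 0.31, 95% interval −1.25 to 0.28, adjusted p = 0.761). Kdm6b-deficient replicate 1 (216 FPKM) lay between the controls and Kdm6b-deficient replicate 3 (120 FPKM) below them. Relative to the 4 T cell genes, *Cd48* stood at 0.383 and 0.405 in the controls and at 0.418 and 0.326 in the other group, so on that scale both controls lay inside the range of the other group. Without Kdm6b-deficient replicate 3 the log2 fold change of *Cd48* was −0.064, and without Kdm6b-deficient replicate 1 it was −0.90. Its binding partners differed in pattern. *Cd244a*, which encodes CD244, had 216 and 174 FPKM in the controls and 165 and 109 FPKM in those labelled Kdm6b-deficient, without overlap (log2 fold change −0.53, standard error 0.26, adjusted p = 0.755 from limma), and its fold change was −0.24 without Kdm6b-deficient replicate 3, −0.83 without Kdm6b-deficient replicate 1 and −0.14 after scaling to the T cell genes. *Cd2* had 59.6 and 20.7 FPKM in the controls and 38.5 and 14.8 FPKM in those labelled Kdm6b-deficient, so that both replicate 1 libraries exceeded both replicate 3 libraries.

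Of the adaptors, *Sh2d1a* (SAP; Entrez 20400, chromosome X, 42502565 to 42522097) was the most variable member. It had 27.0 and 14.0 FPKM in the controls, and 40.3 and 6.07 FPKM in those labelled Kdm6b-deficient. The 2 libraries labelled Kdm6b-deficient were the highest and the lowest of the 4 and differed 6.64-fold. The log2 fold change was −0.26 (standard error 0.84, 95% interval −2.36 to 1.83, adjusted p = 0.948 from limma), although the mean FPKM was higher in the libraries labelled Kdm6b-deficient (23.2 ± 24.2, SD, n = 2) than in the controls (20.5 ± 9.15, SD, n = 2), so the sign depends on the scale. It depends on single libraries too, at 1.01 without Kdm6b-deficient replicate 3 and −1.54 without Kdm6b-deficient replicate 1. Exons of *Sh2d1a* share bases with exons of *Tenm1* on the other strand, and the sources used here do not say whether counting used the strand, but *Tenm1* was at 0 to 0.04 FPKM.

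*Sh2d2a* (TSAd; Entrez 27371, chromosome 3, 87846755 to 87855722) was not called by limma either (log2 fold change −0.42, standard error 0.32, 95% interval −1.21 to 0.37, adjusted p = 0.777), with Kdm6b-deficient replicate 1 (415 FPKM) between the controls. Without Kdm6b-deficient replicate 3 the log2 fold change was −0.043, and without Kdm6b-deficient replicate 1 it was −0.79. *Sh2d1b1* (EAT-2) had 46.5 and 42.1 FPKM in the controls and 37.9 and 27.4 FPKM in those labelled Kdm6b-deficient. Its groups did not overlap, at −0.44 on the log2 scale (standard error 0.22, limma adjusted p = 0.755), but the difference was −0.22 without Kdm6b-deficient replicate 3 and −0.061 after scaling to the T cell genes. The near copy *Sh2d1b2* was not analysed here, so reads of the 2 genes may not be separated. *Sh2d1b1* exceeded *Sh2d1a* in each of the libraries other than Kdm6b-deficient replicate 1, where they had 37.9 and 40.3 FPKM.

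Across the members, the spread followed the libraries more than the groups. Kdm6b-deficient replicate 3 was the lowest library for 8 of 8 members, against 32.5% of all genes. Both replicate 1 libraries lay above both replicate 3 libraries for 7 of 8 members, against 22.8% of all genes. The size of that step differed among the members. Between Kdm6b-deficient replicate 1 and control replicate 3, which had close levels of the T cell genes and of the epithelial markers, *Slamf1* differed 3.28-fold, *Sh2d1a* 2.87-fold, *Slamf7* 1.74-fold and *Slamf6* 1.43-fold. *Cd84*, *Sh2d2a*, *Cd48* and *Ly9* differed by 1.17, 1.14, 1.03 and 0.936 times between the same libraries. This compares single libraries of different genotype and has no replicate check. These libraries were not matched in other markers. In Kdm6b-deficient replicate 1, *H2-Ab1* had 2.48, *Itgae* 0.754 and *Cd160* 0.696 times its level in control replicate 3.

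Markers of conventional T cells moved the same way as *Slamf1*, *Sh2d1a*, *Slamf7* and *Slamf6*. *Cd28* had 29.6 and 15.6 FPKM in control replicates 1 and 3 and 48.8 and 3.28 FPKM in Kdm6b-deficient replicates 1 and 3. *Cd5* had 37.0 and 19.3 FPKM in the controls and 37.9 and 3.38 FPKM in those labelled Kdm6b-deficient, and *Thy1* had 10.8 and 5.50 FPKM against 19.1 and 1.73 FPKM. Both replicate 1 libraries were above both replicate 3 libraries for 4 of the 5 genes of that list, against 22.8% of all genes, the exception being *Cd8b1*. The summed FPKM of the list was 108 and 51.4 in the controls and 138 and 12.3 in the libraries labelled Kdm6b-deficient. In the list of CD8αα IEL genes, 2 of 8 genes had that order, close to the share of all genes, and 6 of 8 were lower in both libraries labelled Kdm6b-deficient than in both controls, against 18.6% of all genes. The part of other T cells in the levels of *Slamf1*, *Slamf6*, *Slamf7* and *Sh2d1a* was not tested.

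**Figure D3:**
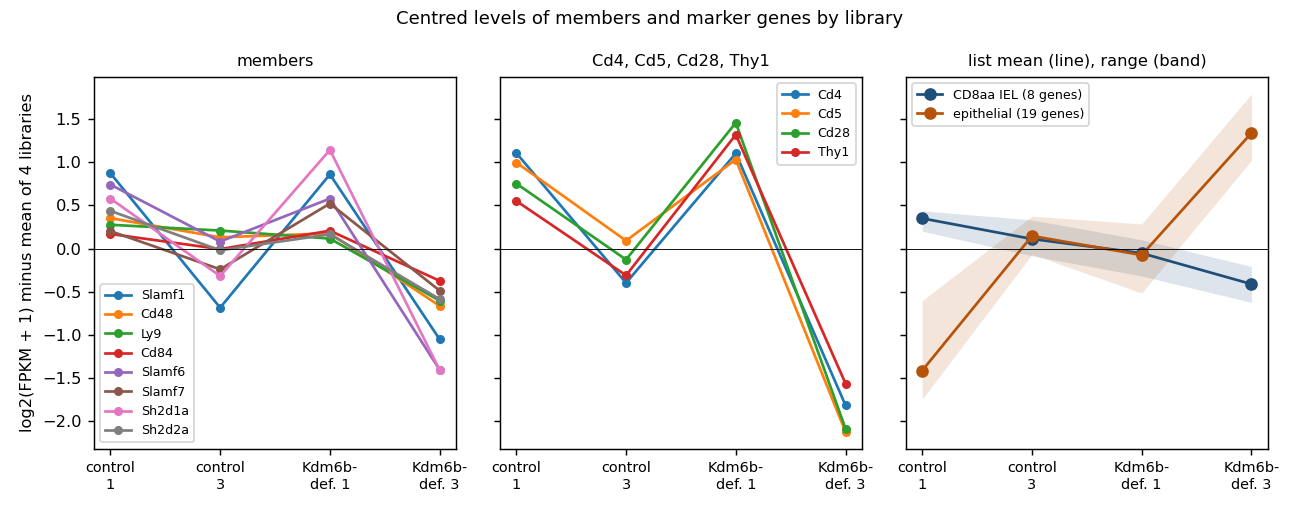
Log2(FPKM + 1) minus the mean of the 4 libraries, by library (control and labelled Kdm6b-deficient, replicates 1 and 3), for the 8 members (left), 4 markers of conventional T cells (middle) and the mean and range of the CD8αα IEL list (8 genes) and the epithelial list (19 genes) (right). For 7 of 8 members, as for *Cd4*, *Cd5*, *Cd28* and *Thy1*, both replicate 1 libraries lie above both replicate 3 libraries. Among the members, *Slamf1*, *Slamf6* and *Sh2d1a* have the widest span. The epithelial list is highest in Kdm6b-deficient replicate 3 and lowest in control replicate 1.

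Division by the T cell genes took out part of this spread. Relative to the geometric mean of *Cd3d*, *Cd3e*, *Cd3g* and *Ptprc*, *Sh2d2a* stood between 0.666 and 0.803 and *Cd84* between 0.04 and 0.0507 in the 4 libraries. *Slamf1* still had 0.027 and 0.0101 in the controls and 0.033 and 0.0103 in the libraries labelled Kdm6b-deficient, and *Sh2d1a* had 0.0423 and 0.0271 and 0.0779 and 0.0164. On this scale both libraries labelled Kdm6b-deficient lay above both controls for 2 of 8 members, *Cd84* and *Slamf7*, against 37.2% of all genes, and below both for none (0 of 8, against 3.09%). With the epithelial score as a covariate, which leaves 1 residual degree of freedom a gene, *Slamf1* had a log2 fold change of 1.27 (adjusted p = 0.0993 from limma) and *Sh2d1a* 1.17 (adjusted p = 0.257), and neither was called.

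**Figure D4:**
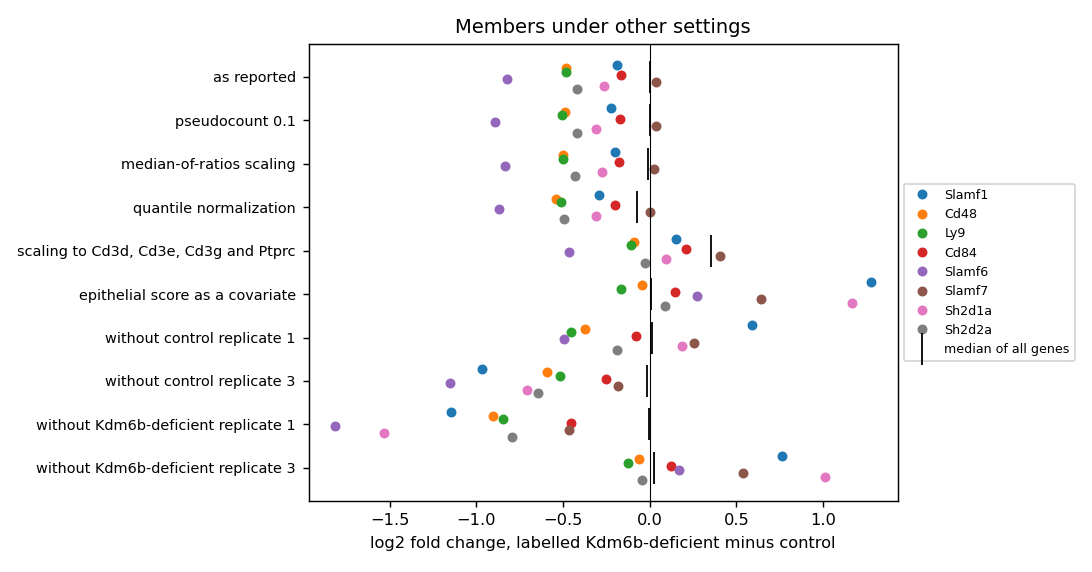
Log2 fold change, labelled Kdm6b-deficient minus control, of the 8 members as reported and under 9 other settings, with the median of all genes tested as a black bar. *Slamf1*, *Slamf6* and *Sh2d1a* move most, from −1.81 for *Slamf6* without Kdm6b-deficient replicate 1 to 1.27 for *Slamf1* with the epithelial covariate, and *Cd84*, *Cd48* and *Ly9* move least from setting to setting among the receptors.

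The wider pathway was taken from a list of 29 genes, 28 of which were measured and tested. Of these, 0 of 28 passed an adjusted p of 0.05 in limma, and 2 of 28 (*Dok1* and *Plcg2*) passed an unadjusted p of 0.05, against 5.35% of all genes. The median log2 fold change was −0.39. Both libraries labelled Kdm6b-deficient were below both controls for 12 of 28 genes, against 18.6% of all genes, and above both for 0 of 28. The 12 lower genes included *Cd244a*, *Sh2d1b1*, the kinases *Lck* and *Csk*, the phosphatases *Inpp5d* (SHIP-1) and *Ptpn6* (SHP-1), *Plcg2*, *Rasa1*, *Dok1*, *Arhgef7* and *Bcl6*. After scaling to the T cell genes 3 of 28 had that order, *Cd244a* and *Dok1* among them, against 3.09% of all genes, and 5 of 28 (*Bcl10*, *Pik3r1*, *Ptpn11*, *Slamf8* and *Slamf9*) lay above both controls, against 37.2% of all genes.

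*Dok1*, *Plcg2* and *Egr2* were named by the size of their difference alone, and *Fyn* was not. *Dok1*, an adaptor that restrains signalling, had 94.7 and 68.1 FPKM in the controls and 51.9 and 47.8 FPKM in those labelled Kdm6b-deficient (log2 fold change −0.68, standard error 0.22, and −0.44 without control replicate 1), and the groups did not overlap. *Plcg2*, a phospholipase, had 57.3 and 50.3 FPKM in the controls and 30.9 and 41.0 FPKM in those labelled Kdm6b-deficient (−0.58, standard error 0.22, and −0.38 without Kdm6b-deficient replicate 1). *Egr2*, a factor induced by strong T cell receptor signals, had 6.62 and 12.3 FPKM and 9.82 and 22.2 FPKM (0.65, standard error 0.47), and its groups overlapped. Its difference was 0.11 without Kdm6b-deficient replicate 3 and 1.204 without Kdm6b-deficient replicate 1, and −0.15 with the epithelial covariate. *Fyn*, the kinase that SAP brings to the receptors, had 42.4 and 26.3 FPKM in the controls and 42.02 and 15 FPKM in those labelled Kdm6b-deficient, so its replicate 1 libraries were nearly alike.

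The remaining family members were low. *Slamf8*, a receptor of myeloid cells, had 6.43 and 3.20 FPKM in the controls and 7.08 and 6.10 FPKM in those labelled Kdm6b-deficient, a difference of 0.44 on the log2 scale (standard error 0.37, limma adjusted p = 0.793) that was 0.028 without control replicate 3 and 0.85 without control replicate 1. *Slamf9* had 2.36 and 1.63 FPKM and 2.01 and 2.78 FPKM, a difference of 0.18 (standard error 0.34, limma adjusted p = 0.9). This difference was 0.0056 without control replicate 3 and 0.018 without Kdm6b-deficient replicate 3. It was 0.36 without control replicate 1 and 0.35 without Kdm6b-deficient replicate 1. Of 8 myeloid and dendritic markers, none at 0 in any library, *Lyz2*, *Cd68*, *Adgre1* and *H2-Ab1* (4 of 8, against 18.4% of all genes) were higher in both libraries labelled Kdm6b-deficient than in both controls. *Fcer1g*, the highest of the 8 in each library, was lower in both, with 1785 and 1367 FPKM in the controls and 1357 and 852 FPKM in those labelled Kdm6b-deficient. The geometric mean of the list, relative to control replicate 1, was 0.687 in control replicate 3 and 1.25 and 0.970 in Kdm6b-deficient replicates 1 and 3, and the groups overlapped. Its summed FPKM ranged from 2179 to 2953 in the controls and from 2321 to 3115 in the libraries labelled Kdm6b-deficient. *Fcer1g* was the largest part of each sum, so the overlap of the sums hangs on that gene. The part of these markers in the *Slamf8* and *Slamf9* values was not tested.

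The receptor genes lie together. On chromosome 1 of GRCm38, 9 SLAM family genes span 1032 kb from *Cd244a* to *Slamf8* (171558718 to 172590873), and 7 of them sit within 390.2 kb (171558718 to 171948958). All 9 family genes were tested, with a median log2 fold change of −0.19, 6 negative, and 2 (*Cd244a* and *Ly9*) lower in both libraries labelled Kdm6b-deficient, a share close to the 18.6% of all genes. Between them the annotation holds 19 further protein-coding genes, of which 17 were measured and 9 tested. These were *Ncstn*, *Copa*, *Pex19*, *Dcaf8*, *Pea15a*, *Igsf8*, *Pigm*, *Igsf9* and *Tagln2*, with a median of 0.12 and a range from −0.25 to 0.81. Both replicate 1 libraries were above both replicate 3 libraries for 6 of the 9 family genes and 2 of the 9 others, against 22.8% of all genes. The 9 others lay on the side of *Slamf9* and *Slamf8*, none of them within the 390.2 kb that hold the 7.

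**Figure D5:**
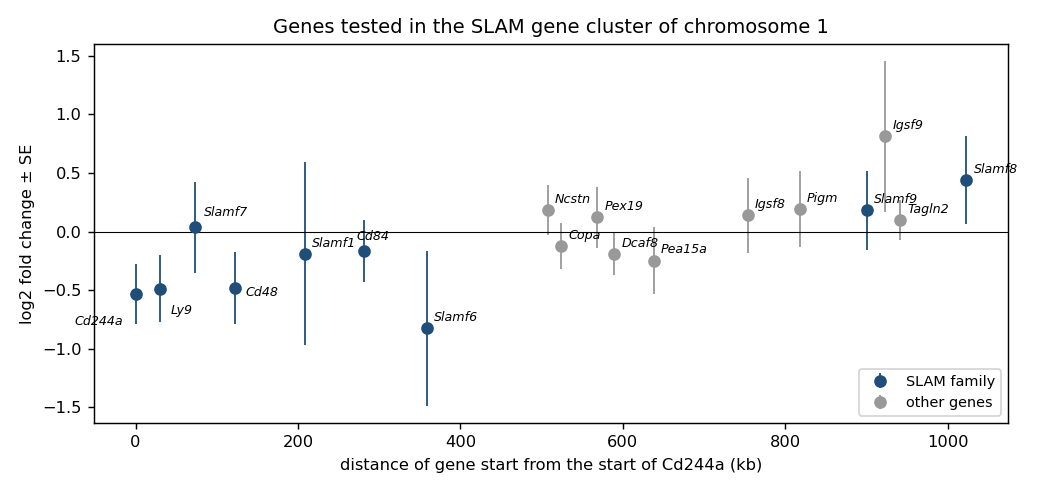
Log2 fold change (labelled Kdm6b-deficient minus control) with its standard error for the 18 genes tested in the SLAM gene cluster of chromosome 1, by the distance of the gene start from that of *Cd244a* in kb. Of the 7 family genes on the left, 6 have negative values (of these, *Slamf1* and *Cd84* are positive after scaling to the T cell genes), and the 9 other genes (grey) lie around 0 except *Igsf9*.

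The mean profile of the 8 members over the 4 libraries was 0.45 and −0.11 in control replicates 1 and 3 and 0.47 and −0.82 in Kdm6b-deficient replicates 1 and 3, as log2(FPKM + 1) minus the mean of the libraries. The 5 genes nearest to it by Euclidean distance over these 4 libraries were *Gbp6* (distance 0.0656), *Gm13092* (0.0815), *Ptpn9* (0.115), *Fyn* (0.13) and *Trim30a* (0.131), beside a median of 1.12 over all genes tested. *Gbp6* had 39.7 and 27.7 FPKM in the controls and 42.3 and 15.8 FPKM in those labelled Kdm6b-deficient. *Gm13092* was near the floor, with 1.29 and 0.68 FPKM in the controls and 1.42 and 0 FPKM in those labelled Kdm6b-deficient. The members themselves were 0.395 (*Sh2d2a*) to 0.923 (*Sh2d1a*) from their own mean. The 5 genes were picked as the nearest of the other genes tested, so their smaller distances do not tell how alike the members are.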

How the data were processed

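RNA of TCRβ+CD8αα+ IELs was sequenced by the authors on a HiSeq instrument, aligned by HISAT and Bowtie2 against mm10, and quantified by RSEM (Bowtie2 2.2.5 and RSEM 1.2.8 in the submitters' processing notes). The deposited values are FPKM with 2 decimals, already scaled by the authors to transcript length and mapped fragments. The gene annotation and strand setting are not given in the sources used here. Symbols and coordinates came from RefSeq of GRCm38.p6, the mm10 assembly, and matched 18467 of 19339 identifiers.

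FPKM were used as log2(FPKM + 1), so fold changes of low genes are understated. Genes reaching 1 FPKM in 2 or more libraries (12009) entered 1 limma fit (version 3.58.1 under R 4.3.3, lmFit followed by eBayes, trend on). The same step was also run on simulated data, in which the noise of the libraries was independent. Python 3.11.15 was used for tables (pandas 2.3.3, numpy 2.4.6). Nothing in the sources says whether the pools of a group were prepared apart, so p-values cover the spread between libraries only.

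Total reads are unknown. From the smallest steps of FPKM multiplied by length in genes of 1 transcript of 1000 to 2500 bases, the depth relative to control replicate 1 was 0.989 in control replicate 3, 1.04 in Kdm6b-deficient replicate 1 and 0.841 in Kdm6b-deficient replicate 3. On that estimate the least covered value, *Sh2d1a* in Kdm6b-deficient replicate 3, rests on about 49.8 fragments, a counting error of 14.2%, and the others on over 100 fragments.

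The members and lists were chosen with earlier results of these data known. Named were all members, other SLAM and SAP family genes, the 4 pathway genes with the largest absolute log2 fold change (1 item is not reported here), the tested genes of the locus, and the 5 genes nearest the members' mean profile. *Cd2*, the pathway genes whose groups do not overlap, *Tenm1*, *Jchain* and the other single genes of the marker lists were named after their values were seen. Alternatives are given in the closing section. Of the marker lists not described in the report, mast cell and platelet markers summed to 46.6 to 79.7 FPKM, NK and ILC markers to 23.8 to 33.0 FPKM, and of 3 γδ T cell markers only *Sox13* was measured (0.34 to 1.65 FPKM).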

Additional observations from a re-analysis of the deposited data

How the results depend on the processing

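Over the alternatives no member was called at an adjusted p of 0.05 (0 of 8 by limma in each). Without the block or a covariate, the count of all genes with a log2 fold change beyond 1 was 797, and it moved to 1381 with a pseudocount of 0.1, 1434 with scaling to *Cd3d*, *Cd3e*, *Cd3g* and *Ptprc*, and 449 with the epithelial covariate. Leaving out each library in turn gave 364 to 1577 such genes, and 0 to 3 members in place of 0; the lone library left in a group is then assumed to vary like the others. The epithelial covariate put 2 members beyond 1 and called 109 genes in place of 0. Scaling to the T cell genes gave 0 members and 3 pathway genes lower in both libraries labelled Kdm6b-deficient, in place of 1 and 12.

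Signs turned as follows. Under the T cell scaling the log2 fold change was 0.15 for *Slamf1*, 0.21 for *Cd84*, 0.096 for *Sh2d1a* and 0.19 for *Kdm6b*. With the epithelial covariate it was 1.27 for *Slamf1*, 0.15 for *Cd84*, 0.27 for *Slamf6*, 1.17 for *Sh2d1a*, 0.088 for *Sh2d2a*, −0.15 for *Egr2* and 0.11 for *Kdm6b*. Under quantile normalization it was −0.00085 for *Slamf7* and −0.014 for *Slamf9*. Leaving out each library gave −1.14 to 0.76 for *Slamf1*, −0.45 to 0.13 for *Cd84*, −1.81 to 0.17 for *Slamf6*, −0.47 to 0.54 for *Slamf7*, −1.54 to 1.01 for *Sh2d1a* and −0.52 to 0.16 for *Kdm6b*, the sign turning without Kdm6b-deficient replicate 3 for *Slamf1*, *Cd84*, *Slamf6*, *Sh2d1a* and *Kdm6b*, without control replicate 1 for *Slamf1* and *Sh2d1a*, and without control replicate 3 or Kdm6b-deficient replicate 1 for *Slamf7*. The cause was not tested. *Cd48* and *Ly9* kept a negative sign under every alternative, but without Kdm6b-deficient replicate 3 they moved to −0.064 and −0.13, and *Sh2d2a* to −0.043. Without Kdm6b-deficient replicate 1 the values were −0.90 for *Cd48*, −0.84 for *Ly9* and −0.79 for *Sh2d2a*.

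Replicate numbers 1 and 3 occur in both groups, with no word in the labels on whether a number marks a shared preparation, and the deviations of same-numbered libraries correlated at 0.56 across genes. When replicate number entered as a block, 1019 genes were called in place of 0, and 3 of the pathway list, which included *Dok1* (adjusted p = 0.0232) and *Cd244a* (adjusted p = 0.043). No member was called with the block, the lowest adjusted p being 0.0979 for *Sh2d2a*. With 2 libraries a group, the 95% intervals of all members but *Cd84* reach beyond 1 on the log2 scale in at least 1 direction.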
